A study of Mus musculus with 24 samples.

Results

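The 6 genes described here encode the MEIS and PBX cofactors of HOX proteins that the deposited gene table lists as Meis1, Meis2, Meis3, Pbx2, Pbx3 and Pbx4, and they were chosen by symbol from the 20633 genes of that table. Each symbol had 1 row. Their transcripts were measured by spike-in calibrated RNA-seq (cRNA-seq), in which Drosophila SG4 cells were added to the mouse cells before RNA extraction, in mouse embryonic stem cells (ESCs) of strain E14. PRC1CKO cells (clone B9) had the genotype Ring1a-/-; Ring1bfl/fl; Rosa26::ERT2-Cre, so they lacked RING1A throughout and lost RING1B, the remaining catalytic subunit of Polycomb repressive complex 1 (PRC1), after 4-hydroxytamoxifen (OHT). PRC1CPM cells (clone 41) were Ring1aI50A/D53K, and so carried a catalytically dead RING1A throughout. Their Ring1b alleles, written Ring1b(WT->I53A/D56K)fl/fl, were switched to a catalytically dead form by the same Rosa26::ERT2-Cre after OHT. Both lines were compared untreated and after 72 h of 800 nM OHT, with 3 numbered replicates of each of the 4 conditions. Each line was a single clone, so line and clone cannot be told apart, and both untreated groups already carried the Ring1a alteration and the Cre recombinase. The labels number the replicates without naming their source, so p-values measure the spread between these samples.

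MEIS and PBX proteins are homeodomain proteins of the TALE class, named for a loop extension of amino acids within the homeodomain. PBX proteins bind DNA together with HOX proteins of the anterior and central paralogue groups, MEIS proteins bind PBX and some posterior HOX proteins, and MEIS binding can keep PBX in the nucleus. In development these cofactors help HOX proteins to pattern the hindbrain, limbs and blood system, whereas Hox clusters and several TALE genes are classic Polycomb targets in ESCs, where PRC1 places ubiquitin on histone H2A.

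The 3 Meis genes differ mainly in size. Meis1 lies on the minus strand at chr11:18880428-19018969 (mm10), a gene body of 138.5 kb, and Meis2 on the minus strand at chr2:115861264-116065058, a gene body of 203.8 kb. Meis3 is compact, with 11.1 kb on the plus strand at chr7:16175395-16186508, and each of the 3 has 13 exons in RefSeq. Pbx2 is the shortest of the 6, with 9 exons in 4.87 kb on the plus strand at chr17:34592471-34597341. Pbx3 has 8 exons over 200.6 kb on the minus strand at chr2:34171457-34372045, and Pbx4 has 8 exons over 39.6 kb on the plus strand at chr8:69832704-69872292. No other gene of the table overlapped any of them.

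The start-site regions of the genes differ in their content of CpG, the dinucleotide that attracts Polycomb complexes to CpG islands. In the 1001 bases centred on the deposited start, the count of CpG dinucleotides was 27 at Meis2, 41 at Meis1, 44 at Meis3, 51 at Pbx4, 70 at Pbx2 and 148 at Pbx3. The Pbx3 window had more CpG than 99.5% of the genes in the table, and the Meis2 window more than 34.1%. RefSeq promoter sequences (GRCm38.p6, 250 bases before to 50 bases after the annotated start) matched 5 of the 6 genes. Those of the Meis gene with the largest rise after OHT, the Meis gene that differed most between the lines, and a Pbx gene that was not called in any comparison are shown 5′ to 3′ on the strand of the gene, with CpG in capitals. They span chr11:19018920-19019219 (minus strand) for Meis1, chr2:116064570-116064869 (minus strand) for Meis2 and chr17:34592009-34592308 (plus strand) for Pbx2.
Meis1: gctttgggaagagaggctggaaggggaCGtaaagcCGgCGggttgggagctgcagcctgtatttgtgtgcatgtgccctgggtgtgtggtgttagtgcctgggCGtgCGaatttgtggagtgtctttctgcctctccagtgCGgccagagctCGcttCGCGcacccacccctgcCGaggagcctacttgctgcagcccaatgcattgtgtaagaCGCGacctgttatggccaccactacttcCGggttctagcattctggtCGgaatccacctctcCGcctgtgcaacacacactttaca
Meis2: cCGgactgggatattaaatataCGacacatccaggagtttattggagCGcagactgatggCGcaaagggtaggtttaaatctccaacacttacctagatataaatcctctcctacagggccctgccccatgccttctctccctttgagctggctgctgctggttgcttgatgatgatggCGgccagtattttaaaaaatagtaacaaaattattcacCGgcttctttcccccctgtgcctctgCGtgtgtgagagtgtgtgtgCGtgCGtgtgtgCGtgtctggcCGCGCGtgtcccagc
Pbx2: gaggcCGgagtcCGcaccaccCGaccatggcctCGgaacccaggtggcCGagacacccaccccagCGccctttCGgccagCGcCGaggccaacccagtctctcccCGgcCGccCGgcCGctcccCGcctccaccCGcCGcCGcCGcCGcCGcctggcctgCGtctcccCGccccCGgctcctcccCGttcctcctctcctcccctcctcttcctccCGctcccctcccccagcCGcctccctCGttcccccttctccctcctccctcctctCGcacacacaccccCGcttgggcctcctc
These promoters held 15, 13 and 29 CpG, those of Meis3 and Pbx4 held 21 and 19, and the median of all 32851 RefSeq promoters was 7. The annotated RefSeq start differed from the deposited start by 439 bases for Meis2 and by 212 bases for Pbx2. Neither TGACAG, the core of the MEIS recognition sequence, nor TGATNNAT, a PBX-HOX recognition sequence, was found on either strand in the 5 matched promoters. At least 1 match was present in 19.2% of all promoters for TGACAG and in 8.85% for TGATNNAT, so most promoters lacked each of them, as these 5 did.

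The 12 libraries held between 14668159 and 27016156 reads on genes, and the 6 cofactors between 30 and 3036 reads per library. Values are given as normalised read counts, which are reads divided by a size factor from the Drosophila spike-in. Replicate 1 of untreated PRC1CKO stood apart from the other untreated PRC1CKO libraries on this scale, with the highest value for 89.1% of the 16940 genes tested and for all 6 cofactors. In the other groups replicate 1 was highest for 61.1% to 84.8% of genes tested. A bulk library cannot tell more RNA per cell from more cells with the RNA.

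The cells had the defining transcripts of ESCs in all 4 conditions. The 6 ESC markers (Pou5f1, Nanog, Sox2, Zfp42, Esrrb and Tfcp2l1) summed to 51965 ± 6688 normalised read counts in untreated PRC1CKO cells and 41056 ± 3559 after OHT (SD, n = 3), and to 40667 ± 4074 and 38568 ± 7378 in PRC1CPM cells. Esrrb was the most abundant of them by the mean over all 12 libraries. The whole-gene counts of the targeted genes could not check the alleles, because OHT removes or swaps a single exon of Ring1b (Rnf2 in the table) and the Ring1a deletion covers part of its gene. Rnf2 counts were 1526 ± 201 and 1546 ± 50.8 in PRC1CKO cells and 1696 ± 140 and 1511 ± 214 in PRC1CPM cells, untreated and treated respectively (SD, n = 3). Ring1, the table's name for Ring1a, was at 227 ± 76.3 and 254 ± 26.4 in PRC1CKO cells and at 162 ± 32.2 and 140.1 ± 25.8 in PRC1CPM cells.

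Comparing OHT-treated with untreated cells of each line asked how the cofactor genes responded to loss of PRC1 and to loss of its catalytic activity alone. Meis1 and Meis2 rose in both lines, Meis3 rose in PRC1CKO cells, and no Pbx gene passed the test. A gene was called when its adjusted p was below 0.05 and its fold change above 1.5 in limma, fitted over all 12 libraries with Benjamini-Hochberg adjustment over the genes tested. In PRC1CKO cells 3 of the 6 cofactor genes were called higher and 0 lower, against a background of 16.5% of genes tested called higher and 3.09% called lower. In PRC1CPM cells 2 of 6 were called higher and 0 lower, against 13.1% and 1.4% of genes tested. Both of these, Meis1 and Meis2, were called higher in both lines, as were 11.6% of genes tested. With edgeR 3 were called higher in PRC1CKO and 2 in PRC1CPM cells, and with DESeq2 3 in each. The counts of 0 lower were also 0 with edgeR and DESeq2, and at an unadjusted p below 0.05 they were 1 in PRC1CKO cells (Pbx4) and 0 in PRC1CPM. Over the 6 genes the log2 fold changes had a median of 0.80 in PRC1CKO and 0.69 in PRC1CPM cells, beside 0.12 and 0.10 for all genes tested, on the log2(normalised read count + 1) scale used throughout. The scale itself moved this median, to 0.39 in PRC1CPM and -0.04 in PRC1CKO cells without the authors' genomic DNA correction of the spike-in, and to within 0.01 of 0 with TMM scaling, so values relative to the median are given for the genes that moved.

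**Figure D1:**
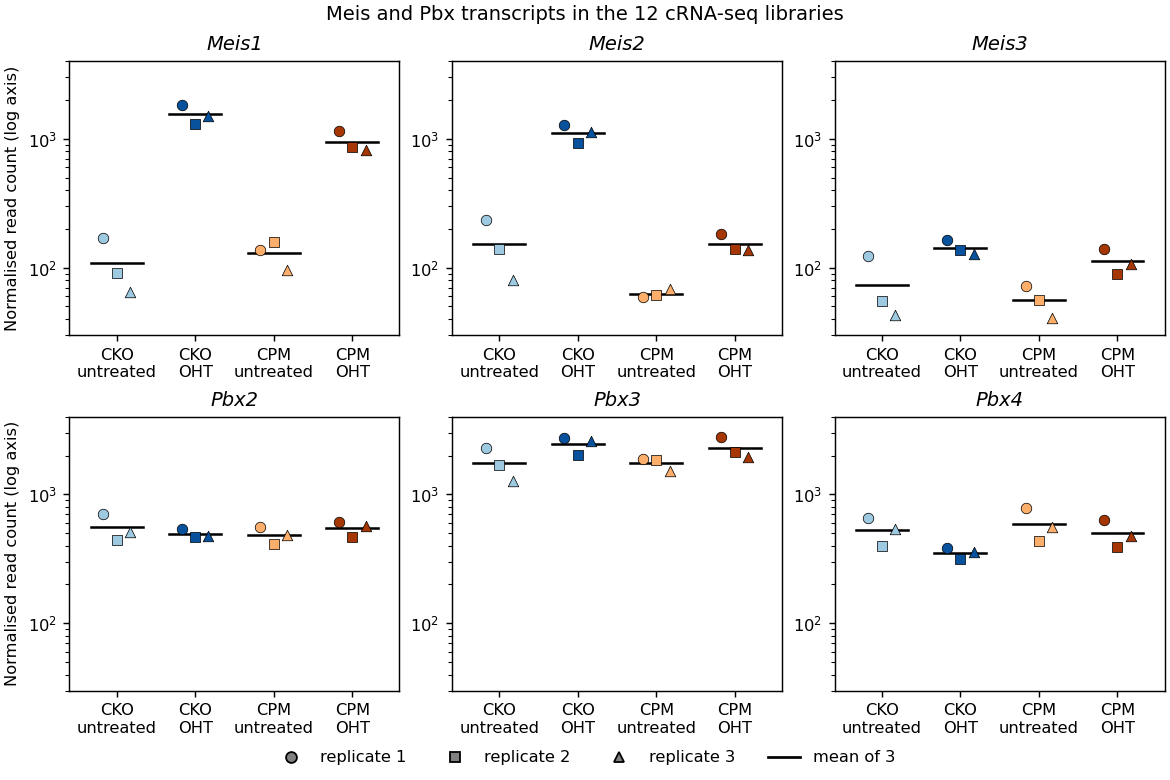
Normalised read counts (log axis) of the 6 cofactor genes in each of the 12 libraries, with a symbol for each replicate and a bar at the mean of 3. After OHT, Meis1 lay between 1294 and 1841 in PRC1CKO and between 813 and 1140 in PRC1CPM cells, whereas Meis2 reached 920 to 1266 in PRC1CKO and 137 to 183 in PRC1CPM cells.

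Meis1, a HOX cofactor needed in blood stem cells and often raised in leukaemia, rose most of the 6. Its normalised read counts in untreated PRC1CKO cells were 169.8, 90.8 and 64.3, and after OHT they were 1841, 1294 and 1507 in replicates 1, 2 and 3. In PRC1CPM cells they were 138, 158 and 96.2 before and 1140, 857 and 813 after OHT. Treated and untreated libraries did not overlap in either line, and even the lowest treated library had several times the count of the highest untreated one. All treated libraries were above all untreated ones for 22.1% of genes tested in PRC1CKO and for 18.7% in PRC1CPM cells. The log2 fold change was 3.93 ± 0.28 (SE) in PRC1CKO cells (adjusted p = 6.6e-16, limma), or 3.81 above the median of all genes, and 134th in the order of log2 fold changes from the top. In PRC1CPM cells it was 2.84 ± 0.28 (adjusted p = 6.2e-11, limma), or 2.74 above the median and 253rd in order. Over 23 settings the place of Meis1 ran from 110th to 263rd in PRC1CKO and from 233rd to 387th in PRC1CPM cells. The lowest place in each line came with a pseudocount of 0.1. The call held without each of the 12 libraries in turn and in the 10 other alternatives tried, in both lines.

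Meis2, which acts in limb, neural crest and neural development, also rose in both lines. Its counts in untreated PRC1CKO cells were 235, 140.1 and 79.5, and after OHT they were 1266, 920.1 and 1123. In PRC1CPM cells they were 58.8, 61.3 and 67.8 before OHT and 183, 139 and 137 after it. Treated and untreated libraries did not overlap within a line, as for the 22.1% and 18.7% of genes tested given beside Meis1, and the treated PRC1CPM libraries fell inside the range of the untreated PRC1CKO libraries. The log2 fold change was 2.98 ± 0.31 in PRC1CKO cells (adjusted p = 4.5e-11, limma) and 1.27 ± 0.31 in PRC1CPM cells (adjusted p = 0.00207, limma). These were 2.86 and 1.17 above the median of all genes. Both calls held without each library in turn and in the 10 other alternatives.

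Meis3, a MEIS protein that acts in hindbrain patterning, moved less. Its counts went from 122, 54.6 and 43.1 to 163, 137 and 127 in PRC1CKO cells, and from 71.6, 56.5 and 40.7 to 139, 88.9 and 107 in PRC1CPM cells. All treated libraries lay above all untreated ones in each line, as was so for 22.1% of genes tested in PRC1CKO and 18.7% in PRC1CPM cells. The log2 fold changes were 1.09 ± 0.36 in PRC1CKO cells (adjusted p = 0.0245, limma) and 0.99 ± 0.36 in PRC1CPM cells (adjusted p = 0.0566, limma), so only the first was called. These were 0.97 and 0.89 above the median of all genes. The difference between these 2 responses was -0.10 on the log2 scale, with a 95% confidence interval from -1.12 to 0.93. Meis3 had 30 to 180 reads per library, and its calls changed when single libraries were left out. In PRC1CKO cells the adjusted p (limma) became 0.0852 without untreated replicate 2, 0.225 without untreated replicate 3, 0.111 without treated replicate 1 and 0.0600 without treated replicate 2. In PRC1CPM cells it became 0.0227 without untreated PRC1CPM replicate 1, and 0.0214 and 0.0384 without untreated PRC1CKO replicates 1 and 2, which enter through the shared spread. Among the other 10 alternatives Meis3 was called in 8 in PRC1CKO and in 5 in PRC1CPM cells. Without the filter on low counts the adjusted p in PRC1CKO cells was 0.0588 (limma), and with DESeq2 the adjusted p in PRC1CPM cells was 0.0442. Without the genomic DNA correction the values were 0.93 in PRC1CKO (adjusted p = 0.0868, limma) and 1.28 in PRC1CPM cells (adjusted p = 0.00743, limma), and TMM scaling gave an adjusted p of 0.0145 in PRC1CPM cells.

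Pbx2, a broadly expressed PBX gene, was not called in either line. Its counts were 705, 443 and 515 before and 539, 469 and 478 after OHT in PRC1CKO cells, and 556, 411 and 480 before and 607, 464 and 570 after it in PRC1CPM cells. The groups overlapped in both lines. The log2 fold change was -0.14 in PRC1CKO cells, with a 95% confidence interval from -0.63 to 0.36, and 0.18 in PRC1CPM cells, from -0.31 to 0.68. The PRC1CKO value turned to 0.05 without untreated PRC1CKO replicate 1.

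Pbx3, a PBX protein with roles in the brainstem and in leukaemia, was not called in either line. Its counts were 2289, 1692 and 1269 before and 2744, 2028 and 2595 after OHT in PRC1CKO cells, and 1874, 1850 and 1524 before and 2776, 2150 and 1961 after it in PRC1CPM cells. The groups overlapped in PRC1CKO cells and did not overlap in PRC1CPM cells, where all treated libraries lay above all untreated ones for 18.7% of genes tested. The log2 fold changes were 0.52 ± 0.22 (adjusted p = 0.10, limma) and 0.38 ± 0.22 (adjusted p = 0.331, limma). Without untreated PRC1CKO replicate 1 the PRC1CKO value was 0.73 and passed both thresholds (adjusted p = 0.00847, limma), and without the genomic DNA correction the PRC1CPM value was 0.68 and passed them too (adjusted p = 0.0488, limma).

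Pbx4, a PBX gene best known from the testis in the mouse, had lower mean counts after OHT in both lines without passing the test. Its counts were 661, 398 and 534 before and 385, 315 and 358 after OHT in PRC1CKO cells, where the groups did not overlap, and 777, 432 and 559.8 before and 637, 394 and 474 after it in PRC1CPM cells, where they did. All treated libraries lay below all untreated ones for 8.52% of genes tested in PRC1CKO cells. The log2 fold changes were -0.56 ± 0.26 (adjusted p = 0.138, limma) and -0.22 ± 0.26 (adjusted p = 0.753, limma), and the latter turned to 0.08 without the genomic DNA correction. Scaling by TMM, which centres the bulk of genes, gave -0.68 in PRC1CKO cells with an adjusted p of 0.00089 (limma), so the call for Pbx4 depends on the scale. On the deposited scale the PRC1CKO change was 0.68 log2 units below the median of all genes.

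**Figure D2:**
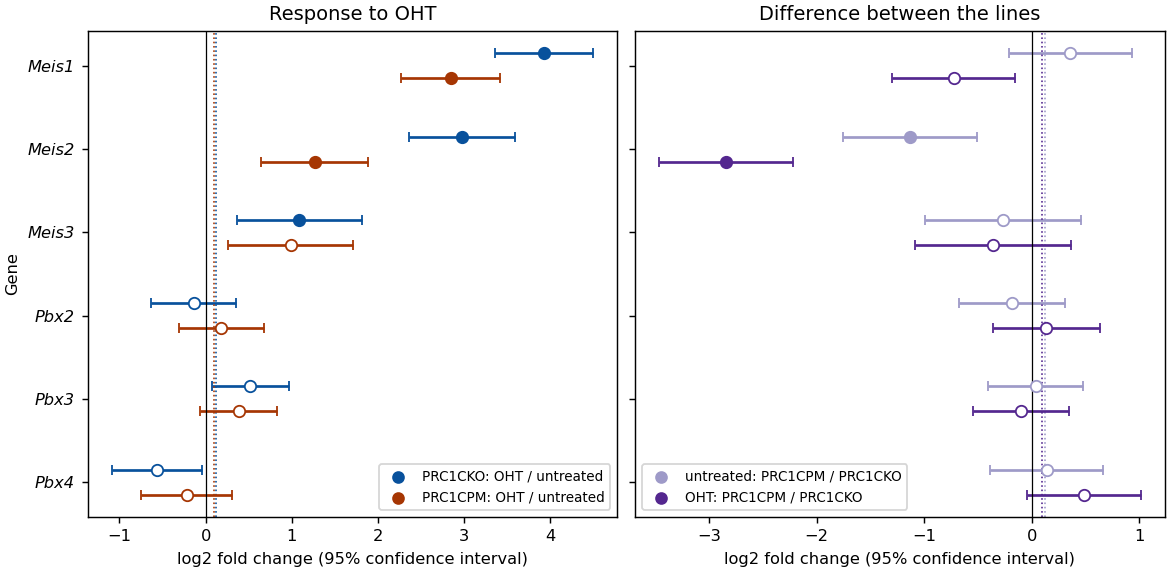
log2 fold changes of the 6 cofactor genes after OHT in each line (left) and between the lines in untreated and treated cells (right), with 95% confidence intervals from limma. Filled points were called, open points were not, and dotted lines mark the median of all genes tested, near 0.1 in each comparison. Meis1 and Meis2 lie far to the right of it after OHT, and Meis2 alone is called between the lines.

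Comparing PRC1CPM with PRC1CKO cells after OHT asked whether cells with catalytically dead PRC1 reached the levels of cells without it. Meis2 was called lower in treated PRC1CPM cells, as 1 of the 6 cofactor genes, against 0.218% of genes tested called lower and 1.25% called higher. Its 3 treated PRC1CPM libraries (137 to 183) lay far below the 3 treated PRC1CKO libraries (920 to 1266), and 4.35% of genes tested were lower without overlap in this comparison. The log2 difference was -2.84 ± 0.31 (adjusted p = 6.7e-09, limma), and a ratio of 0.14 with a 95% confidence interval from 0.0908 to 0.215. This was the lowest log2 difference among the 16940 genes tested, and it stayed among the 4 lowest in all 23 settings, being the lowest in 18. Meis2 was called in each of these settings.

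Meis2 also differed between the lines before treatment. The untreated PRC1CPM libraries (58.8 to 67.8) lay just below the untreated PRC1CKO libraries (79.5 to 235), as was so for 2.55% of genes tested, with a log2 difference of -1.13 ± 0.31 (adjusted p = 0.0309, limma), again as 1 of the 6 genes, with 0.478% of genes tested called lower and 2.21% called higher. The call was lost without untreated PRC1CKO replicate 1 (-0.75, adjusted p = 0.103, limma) and replicate 2 (-1.12, adjusted p = 0.0608), and without untreated PRC1CPM replicate 1 (-1.09, adjusted p = 0.0544) and replicate 3 (-1.19, adjusted p = 0.0617). It was also lost without the filter on low counts (adjusted p = 0.0801, limma), without the variance trend (adjusted p = 0.0993) and with the 6 libraries of the comparison alone (adjusted p = 0.125). The response of Meis2 to OHT was 1.71 log2 units smaller in PRC1CPM than in PRC1CKO cells, with a 95% confidence interval from -2.59 to -0.83 for the interaction. Over all genes tested the interaction had an adjusted p of 0.289 (limma) and 0 of the 6 genes were called, beside 4 of 16940 genes (0.0236%), while 497 genes (2.93%) had an unadjusted p below 0.05, Meis1 and Meis2 among them. With edgeR and DESeq2 the interaction also called 0 of the 6. Without untreated PRC1CKO replicate 1 the Meis2 interaction was -2.09 with an adjusted p of 0.0114 (limma).

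Meis1 was not called between the lines. Treated PRC1CPM libraries (813 to 1140) lay below treated PRC1CKO libraries (1294 to 1841) without overlap, as was so for 4.35% of genes tested, and the log2 difference was -0.72 ± 0.28 (adjusted p = 0.252, limma). With TMM scaling it was -0.83 and was called (adjusted p = 0.0320, limma). Untreated libraries overlapped, with a log2 difference of 0.36 ± 0.28 (adjusted p = 0.699, limma). Genes of chromosome 11, where Meis1 lies, were higher in PRC1CPM cells as a whole, with a median log2 difference of 0.45 in untreated and 0.42 in treated cells beside 0.12 and 0.10 for all genes. Relative to the chromosome 11 median, Meis1 differed by -0.09 in untreated and -1.15 in treated cells. The part of the chromosome in the Meis1 values was not tested. On chromosome 2, where Meis2 lies, the medians were 0.08 and 0.06.

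The other cofactor genes were not called between the lines. For Meis3 the log2 difference was -0.27 in untreated cells (95% confidence interval from -0.99 to 0.46) and -0.36 in treated cells (from -1.09 to 0.36). For Pbx2 the intervals ran from -0.68 to 0.31 and from -0.36 to 0.63, and for Pbx3 from -0.41 to 0.48 and from -0.55 to 0.34. Pbx4 counts were higher in treated PRC1CPM than in treated PRC1CKO cells without overlap (394 to 637 against 315 to 385), as was so for 11.9% of genes tested, with a log2 difference of 0.48 ± 0.26 that was not called (adjusted p = 0.515, limma).

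The 4 conditions were also ordered by mean count. For Meis1 the order was treated PRC1CKO (1548 ± 276, SD, n = 3), treated PRC1CPM (937 ± 177.4), untreated PRC1CPM (131 ± 31.7) and untreated PRC1CKO (108 ± 54.9), and only the last neighbours overlapped. For Meis2 it was treated PRC1CKO (1103 ± 174), treated PRC1CPM (153 ± 26.2), untreated PRC1CKO (152 ± 78.6) and untreated PRC1CPM (62.6 ± 4.63), where the middle neighbours overlapped. For Meis3, Pbx2 and Pbx3 every neighbour in the order overlapped. For Pbx4 the lowest group, treated PRC1CKO (352 ± 35.5), was separate from the next.

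Levels can be compared between genes only per length, and the order then depends on the length used, because the alignment included a step for reads in introns but whether those entered the counts per gene is not given in the sources used here. Per kb of gene body, the 3 Meis genes together went from 8.12 ± 4.61 to 29.4 ± 4.20 normalised read counts in PRC1CKO cells and from 6.32 ± 1.53 to 17.6 ± 3.58 in PRC1CPM cells (SD, n = 3). Meis3 held 80.9% of this sum in untreated PRC1CKO cells and 43.7% after OHT, while Meis1 went from 9.81% to 37.9% and Meis2 from 9.29% to 18.4%. In PRC1CPM cells Meis1 went from 15.1% to 38.6%, and Meis2 was at 5.14% before and 4.30% after OHT. Per kb of exon, untreated and treated, Meis1 held 29.95% and 58.6% of the Meis sum in PRC1CKO cells, Meis2 held 30.3% and 30.5%, and Meis3 held 39.7% and 10.9%. In PRC1CPM cells on this length Meis1 held 45.0% and 73.7%, Meis2 held 16.4% and 8.81%, and Meis3 held 38.6% and 17.5%. The share of Meis2 after OHT thus depended on the length used in both lines.

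The Pbx genes outweighed the Meis genes in every condition on both lengths. Per kb of gene body their sum was 136 ± 32.9 and 123 ± 10.1 in PRC1CKO cells and 123 ± 19.5 and 136 ± 19.4 in PRC1CPM cells, untreated and treated. Pbx2 held between 80.8% and 83.7% of it. Per kb of exon Pbx3 led instead, with between 53.2% and 68.6% of the sum, and Pbx2 held between 12.4% and 15.2%. The Pbx sums of treated and untreated cells were not tested.

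**Figure D3:**
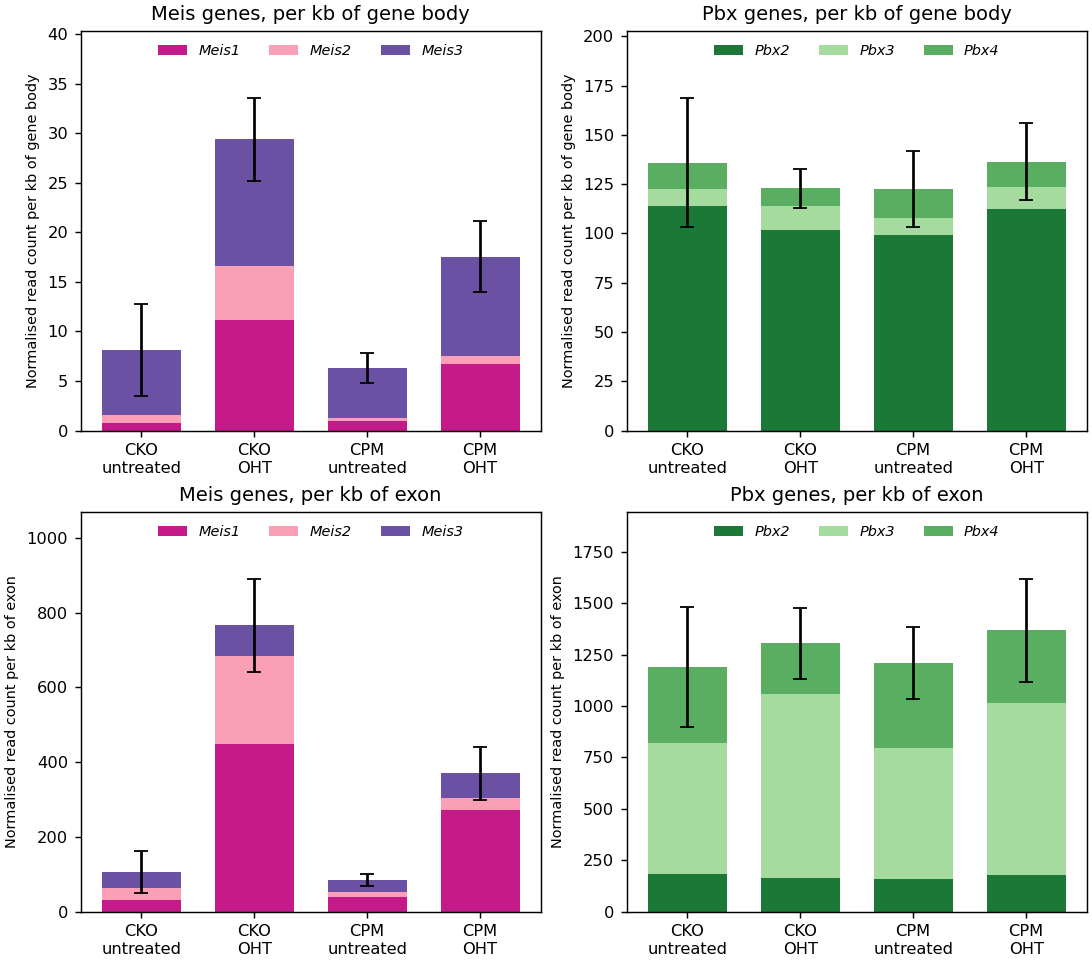
Mean normalised read counts per kb of gene body (top) and per kb of RefSeq exon (bottom), stacked for the 3 Meis genes (left) and the 3 Pbx genes (right) in the 4 conditions; error bars are the SD of the sum over 3 replicates. The Meis sum per kb of gene body is 29.4 in treated PRC1CKO and 17.6 in treated PRC1CPM cells, with a thin Meis2 layer in the latter, and in treated cells Meis3 is the largest layer per kb of gene body and Meis1 per kb of exon.

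Other genes of the same class were read from a list of 13 TALE and PBX-binding genes. In both lines 8 of the 13 were called higher after OHT and 0 lower, also by edgeR and DESeq2, beside 16.5% of genes tested called higher in PRC1CKO and 13.1% in PRC1CPM cells. The 13 had a median log2 fold change of 1.91 in PRC1CKO and 1.37 in PRC1CPM cells. All 6 Iroquois genes, TALE factors of neural and heart patterning, were among them. Irx1 went from 5.27 ± 1.94 to 96.7 ± 3.70 counts in PRC1CKO cells and from 9.44 ± 5.11 to 69.1 ± 18.4 in PRC1CPM cells (SD, n = 3), and its log2 fold changes were 4.01 and 2.82. The values were 3.01 and 2.02 for Irx2, 2.55 and 1.52 for Irx3, 3.62 and 2.12 for Irx4, 3.74 and 2.46 for Irx5 and 1.91 and 3.17 for Irx6. Mkx, a tendon regulator, had 1.97 and 1.37, and Pknox2, a relative of the MEIS genes, 1.08 and 1.05. Unlike Meis2, none of the 13 was called between the lines by limma. At an unadjusted p below 0.05 there were 0 between the treated and 5 between the untreated lines (4 higher and 1 lower in PRC1CPM cells), and edgeR called 0 and DESeq2 1, between the untreated lines.

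The remaining genes of the list were not called. Pknox1, a partner of PBX proteins, had log2 fold changes of 0.08 in PRC1CKO and -0.06 in PRC1CPM cells. Tgif2, a repressor of the same class, had -0.69 (adjusted p = 0.0714, limma) and -0.53, and Pbxip1, which encodes a protein that binds PBX, had 0.51 and 0.06.

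The Hox genes, whose products these cofactors bind, were called higher in most cases. Of the paralogue groups 1 to 8, whose proteins pair with PBX, 21 of 23 genes were tested, with 17 called higher in PRC1CKO cells, 18 in PRC1CPM cells and 0 lower, beside 16.5% and 13.1% of genes tested called higher. Their median log2 fold changes were 2.91 and 2.68, and the latter was 2.38 with 2 genes at 0 reads in untreated PRC1CPM cells set to a bound of 3 reads per library. Hoxd4, Hoxd3 and Hoxb7 had the largest changes in PRC1CKO cells, at 5.27, 5.10 and 5.08, beside 2.89, 2.92 and 2.37 in PRC1CPM cells. Of the paralogue groups 9 to 13, all 16 genes were tested and 14 and 13 were called higher, with medians of 3.74 and 2.86, or 3.48 and 2.67 with genes at 0 reads set to the same bound. Hoxd11 had 6.64 and 3.53 and Hoxa10 had 5.22 and 5.57. Hoxa11 had 0 reads in all 3 untreated PRC1CKO libraries and 94.3 ± 27.3 counts after OHT, at least 30.4-fold higher when set against 3 reads per library. The comparisons between the lines called 3 posterior genes lower in treated PRC1CPM cells, Hoxa10 (-1.94), Hoxa11 (-2.47) and Hoxc11 (-2.74), the last named after its value was seen, beside 0.218% of genes tested called lower. By edgeR and DESeq2 there were 6 and 8. Hoxa10 was also called lower in untreated PRC1CPM cells (-2.29, adjusted p = 0.00427, limma), by neither of the other tools, beside 0.478% of genes tested called lower there. Of the anterior genes 1 was called lower in untreated PRC1CPM cells, Hoxa2 (adjusted p = 0.0224, limma), named after its value was seen and called by edgeR and DESeq2 as well. Hoxa2 had 0 reads in all 3 untreated PRC1CPM libraries and 4 to 9 in the untreated PRC1CKO ones. Between the treated lines 0 anterior genes were called lower by limma and edgeR and 1 by DESeq2, beside 4 at an unadjusted p below 0.05 (limma).

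**Figure D4:**
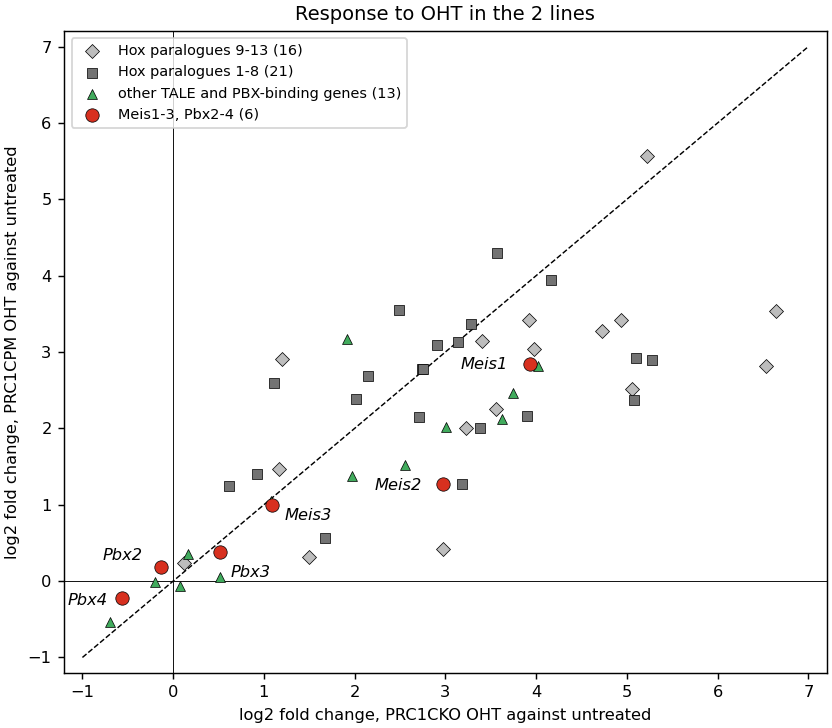
log2 fold change after OHT in PRC1CKO cells (x axis) and PRC1CPM cells (y axis) for the tested cofactor genes (6), other TALE and PBX-binding genes (13) and Hox genes of paralogue groups 1 to 8 (21) and 9 to 13 (16); the dashed line marks equal change. Meis1 (3.93, 2.84) lies among the Hox and Iroquois genes, Meis2 (2.98, 1.27) lies well below the line, and the Pbx genes lie near 0.

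The genes whose pattern over the 12 libraries was most like each cofactor were found by the root mean square difference of centred log2 values, as a description. For Meis1 they were Prkg1 (0.224), Cadps2 (0.269) and 9530036O11Rik (0.278), beside a median of 1.71 over all genes tested. Prkg1, a cGMP-dependent protein kinase, had log2 fold changes of 3.88 and 2.78. For Meis2 the nearest were farther away, Plagl1 (0.466), Gata6 (0.507) and Rftn2 (0.641), beside a median of 1.56. Plagl1, an imprinted zinc-finger gene, had log2 fold changes of 2.26 and 1.83 after OHT and log2 differences between the lines of -1.84 in untreated and -2.27 in treated cells. Gata6, a regulator of primitive endoderm, had 2.96 and 2.26 after OHT and -1.08 and -1.78 between the lines. No other cofactor was as near to Meis2, since its difference was 1.13 to Meis1 and 1.10 to Meis3.

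The other cofactors had nearer neighbours in pattern. For Meis3 they were Igdcc3 (0.121), Lats2 (0.150) and Wls (0.171), with log2 fold changes in PRC1CKO cells of 0.92, 1.37 and 1.02. For Pbx2 they included Sh3glb1 and Tsfm (0.0754 and 0.0780), for Pbx3 they were Syn3, Zcchc7 and Diap3 (0.0655 to 0.0695), and for Pbx4 Hdac5, Stat6 and Sgsm1 (0.0706 to 0.0910). All 12 libraries share their size factors across genes, so part of any likeness is common to a library.

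The tested neighbours of the Meis genes were not called after OHT. BC052040, 82.5 kb downstream of Meis2, had 3073 ± 740 and 3234 ± 670 counts in PRC1CKO cells, untreated and treated (SD, n = 3), and log2 fold changes of 0.08 and 0.12. Slc8a2, a sodium-calcium exchanger gene 14.9 kb upstream of Meis3, had 0.36 and 0.11, and Dhx34, 10.7 kb downstream, had -0.35 and -0.09. The flanks of Meis1 (Gm12018 and 4933406G16Rik) and the upstream flank of Meis2 (2810405F15Rik) had too few reads to be tested. Around the Pbx genes, Gpsm3, Ager, C230014O12Rik, Mapkap1 and Lpar2 were not called. Cilp2, 8.07 kb downstream of Pbx4 on the opposite strand, was called higher in both lines, with log2 fold changes of 2.44 ± 0.32 and 2.37 ± 0.32 (adjusted p of 3.1e-08 and 1.6e-07, limma), while Pbx4 itself was not called.

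Markers of other cell types moved in part with OHT. Of 6 neural progenitor markers, 4 were called higher, among them Pax6, Neurog2 and Nes, and 1 lower (Tubb3) in PRC1CKO cells, and 2 higher (Pax6 and Neurog2) in PRC1CPM cells. The list summed to 1445 ± 572 and 2219 ± 177 counts in PRC1CKO cells and 1636 ± 146 and 2042 ± 592 in PRC1CPM cells. Nes was its most abundant gene by the mean over all 12 libraries. Neurog2 had at most 10 reads in each untreated library. Of the ESC markers, Sox2 was called lower in PRC1CKO cells (-0.89, adjusted p = 0.00051, limma) and 0 of 6 were called in PRC1CPM cells, where 1 was lower at an unadjusted p below 0.05 and 0 by edgeR and DESeq2. Between the untreated lines, Sox1 of the neural list (-1.40, adjusted p = 0.01997, limma) and Tfcp2l1 of the ESC list (-0.88, adjusted p = 0.00798, limma) were called lower in PRC1CPM cells. The part of these genes in the Meis values was not tested.

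Fibroblast and blood markers were uneven between libraries. The 6 fibroblast markers summed to 13577 and 13548 counts in replicate 1 of untreated and treated PRC1CPM cells, and to between 1517 and 5181 in the other 10 libraries, with Col1a1 the most abundant in each group. Lum had at most 10 reads in every library, and Dcn in every library outside the untreated PRC1CPM group. Between the lines, Col1a1 was called higher in treated PRC1CPM cells (1.44, adjusted p = 0.0203, limma) and Col1a2 in untreated PRC1CPM cells (1.38, adjusted p = 0.0081, limma), each by limma and edgeR and not by DESeq2. By edgeR Col1a1 was called higher in untreated PRC1CPM cells as well. Without treated PRC1CPM replicate 1 the difference of Meis2 between the treated lines was -2.98 (adjusted p = 3.1e-08, limma). In PRC1CKO cells 1 of the 4 tested fibroblast markers was called lower after OHT (Postn) and 0 higher, and in PRC1CPM cells 0 were called (1 lower at an unadjusted p below 0.05 and with edgeR, 0 with DESeq2). Of the blood markers Ptprc had at most 10 reads in every library. Of the 3 that were tested, Cd34, the most abundant, was called higher in PRC1CKO cells (1.00, adjusted p = 0.0166, limma), where Spi1 and Itgam had -1.14 and -0.59 and were not called. In PRC1CPM cells the values were 0.86 for Cd34, 0.43 for Spi1 and -0.29 for Itgam, and 0 of the 3 were called by limma and DESeq2 and 1 by edgeR (Cd34), with 1 at an unadjusted p below 0.05. Without untreated PRC1CPM replicate 1 the log2 fold changes in PRC1CPM cells were 2.90 for Meis1 and 1.22 for Meis2, and without treated PRC1CPM replicate 1 they were 2.69 and 1.13, each called higher.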

How the data were processed

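Per the labels and the study's methods, rRNA-depleted total RNA was sequenced from directional libraries, aligned to mm10 and dm6 with Bowtie 2 and STAR, stripped of PCR duplicates and counted with SAMtools over a non-redundant mm10 gene set; a last alignment step was meant to recover reads in introns, but whether introns or strand entered the counting is not given in the sources used here. The deposited signal values are read counts that the authors divided by spike-in size factors, corrected with matched genomic DNA libraries. Columns of log2 fold changes and adjusted p-values from the authors' DESeq2 comparisons, and a deposited gene list made from them, were not used. Whole reads were recovered for 100% of values (tolerance 0.02). A minimum of 10 reads, reached in 3 or more of the 12 libraries, left 16940 of 20633 genes. These were tested with limma 3.58.1 (R 4.3.3) on log2(normalised read count + 1), with 1 mean per condition, a trend of the variance on the mean, and p-values adjusted by Benjamini-Hochberg. Calls needed an adjusted p below 0.05 and a fold change above 1.5, or the adjusted p alone for the interaction. Alternatives included edgeR 4.0.16 and DESeq2 1.42.0 on recovered reads. The limma fit, and not edgeR or DESeq2, was tested on simulated counts with fold changes set in treated PRC1CKO cells. Exon lengths and promoters came from RefSeq GRCm38.p6. Named genes were all 6 cofactors, called TALE genes, the 3 largest called changes of each Hox list in PRC1CKO cells, the 3 genes most like each cofactor and its flanks; Pknox1, Tgif2 and Pbxip1 were added, and some genes that the rule or the marker lists name are not reported here. The cofactors and gene lists were chosen with earlier results of these data known. The 12 genomic DNA libraries were not analysed here.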

Additional observations from a re-analysis of the deposited data

How the results depend on the processing

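The calls of Meis1 and Meis2 after OHT, and of Meis2 between the treated lines, held in all 22 alternatives. Meis3 had the fewest reads of the 6 cofactors, at 30 to 180 per library. Each cofactor had 1 row, so another transcript row could not be tried. The number of cofactor genes called stayed between 2 and 4 in PRC1CKO and between 2 and 4 in PRC1CPM cells over all alternatives, with 4 in PRC1CPM cells without the genomic DNA correction. Between the treated lines 2 cofactors were called (Meis1 and Meis2) with TMM scaling and with the 6 libraries of the comparison alone. Between the untreated lines 0 were called without the filter on low counts, without the variance trend and with the 6 libraries alone.

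Counts of genes called moved as well. Between the treated lines 249 genes were called, and 785 with TMM, 462 without the genomic DNA correction, 157 without the filter, 681 with the 6 libraries alone and 429 with DESeq2. Between the untreated lines 455 became 1050 with TMM, 278 without the genomic DNA correction and 269 with the 6 libraries alone. For the interaction 4 became 14 with TMM, 0 without the filter and without the trend, 1 with a pseudocount of 0.1 and 15 with DESeq2. Leaving out 1 library gave 116 (treated PRC1CKO replicate 2) to 477 (untreated PRC1CKO replicate 1) between the treated lines, 244 (untreated PRC1CKO replicate 3) to 1569 (untreated PRC1CKO replicate 1) between the untreated lines and 1 to 28 (untreated PRC1CKO replicate 1) for the interaction. It gave 0 to 1 cofactors for the interaction and 0 to 1 between the untreated lines. The cause was not tested.

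Directions turned for uncalled log2 values alone. Pbx3 between the untreated lines was -0.0797 with TMM. Without the genomic DNA correction it was -0.25, Pbx4 there was -0.14, Pbx4 in PRC1CPM cells 0.0764, Pbx3 between the treated lines 0.0681, and the interactions of Meis3 and Pbx3 were 0.35 and 0.32. With 1 library left out, ranges that crossed 0 ran from -0.28 to 0.0493 for Pbx2 in PRC1CKO cells and from -0.42 to 0.000576 for Pbx4 in PRC1CPM cells. For Pbx3 between the treated lines the range was -0.25 to 0.00463. Between the untreated lines it was -0.57 to 0.17 for Meis3, -0.33 to 0.00265 for Pbx2, -0.18 to 0.25 for Pbx3 and -0.0811 to 0.34 for Pbx4. For the interaction it was -0.54 to 0.21 for Meis3 and -0.35 to 0.0753 for Pbx3.

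Libraries with the same replicate number deviated together, with a mean correlation of 0.205 over 18 pairs (0.0988 to 0.438). The mean over 36 pairs of different numbers, -0.102, is largely set by that value, because deviations were taken from the mean of each group. Of the 12 libraries, 12 correlated best with their own number. Since 1 pair fell below 0.1 and no label ties the numbers to a shared origin, this is a hint from the data and not a design. With the replicate number as a block, 3 cofactors were called in PRC1CPM cells after OHT (Meis3 added, adjusted p = 0.000555, limma, and 0.00287 with TMM), 2 between the treated lines and 2 in the interaction (Meis1, adjusted p = 0.000862, and Meis2, adjusted p = 7.4e-07, limma), beside 1363 genes between the treated lines, 1884 between the untreated lines and 324 in the interaction. The block with TMM gave 2 and 2 cofactors and 1151, 1470 and 254 genes, with Pbx3 between the untreated lines at -0.0797.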
